A study of Homo sapiens with 3 samples.

Results

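The aldehyde dehydrogenases described here are 10 genes of the human ALDH superfamily, ALDH1A1, ALDH1A2, ALDH1A3, ALDH1B1, ALDH2, ALDH3A1, ALDH3A2, ALDH3B1, ALDH7A1 and ALDH9A1, of 19775 genes named on the array. They were taken by gene symbol, and every probe set annotated to one of them alone was used, 19 of 54675. They were measured on 3 arrays, 1 each for MHCC97Low, a human metastatic hepatocellular carcinoma line, and for a pair of drug-resistant sublines made from it. These were the cisplatin-resistant subline MHCC97L/CisR (CisR), the doxorubicin-resistant subline MHCC97L/DoxR (DoxR) and the parental line MHCC97Low, all grown in DMEM with 10% FBS and left untreated before RNA was taken. Both sublines derive from the parental line, the labels give no drug dose or length of selection, and each line is represented by 1 RNA sample, so a difference between lines and a difference between cultures cannot be told apart and no test was possible.

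Aldehyde dehydrogenases oxidise aldehydes to carboxylic acids with NAD+ or NADP+. In liver they clear acetaldehyde made from ethanol and the reactive aldehydes of lipid peroxidation, and they make retinoic acid from retinaldehyde. High aldehyde dehydrogenase activity is widely used to sort stem-like cells from tumours, and some members inactivate the oxazaphosphorine drugs. Cisplatin crosslinks DNA. Doxorubicin, an anthracycline, traps topoisomerase II on DNA.

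The values are MAS5 signals, a linear intensity per probe set. Values at or under a floor of 76.9, the median of all values on the 3 arrays, were treated as not measurable. A gene was called higher or lower when the floored signals of 2 arrays differed at least 2-fold, which is 1 on the log2 scale. Signals of different probe sets depend on the probes, so they are compared here between arrays and not between genes. The exception is the sums of cell type markers, which add signals over genes, values under the floor included. Bright probe sets therefore dominate these sums. A bulk RNA sample does not separate fewer cells of a type from less RNA per cell.

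Signal of 8 of the 10 members was above the floor on all 3 arrays, in 13 of their probe sets. The other 2, ALDH1A2 and ALDH1A3, were under the floor on every array in both of their probe sets, and 1 probe set each of ALDH3B1 and ALDH7A1 was under it as well. No probe set of a member crossed the floor between lines. Over the whole array, 24574 of 54675 probe sets were above the floor on all 3 arrays. By brightest probe set, so were 11125 genes besides ALDH3A1, of 19775. ALDH1A2 and ALDH1A3 make retinoic acid from retinaldehyde, as ALDH1A1 does, so only 1 of the 3 ALDH1A enzymes gave a measurable signal.

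The start regions of the 3 ALDH1A genes are shown because these close relatives differ in whether they were measurable. They are RefSeq sequences of GRCh38.p14, 250 bases before to 50 after an annotated start, in the gene's direction. Capitals mark CCAAT and GCGTG, searched on both strands. GCGTG is the core bound by the aryl hydrocarbon receptor.
ALDH1A1, minus strand of chr9:72953004-72953303: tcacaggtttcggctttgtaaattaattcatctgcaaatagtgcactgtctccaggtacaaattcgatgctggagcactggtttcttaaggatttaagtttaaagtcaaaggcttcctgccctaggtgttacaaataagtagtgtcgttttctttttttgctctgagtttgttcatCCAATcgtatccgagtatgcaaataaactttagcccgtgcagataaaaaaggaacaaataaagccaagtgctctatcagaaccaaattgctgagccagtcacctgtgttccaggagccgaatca
ALDH1A2, first start, minus strand of chr15:58065662-58065961: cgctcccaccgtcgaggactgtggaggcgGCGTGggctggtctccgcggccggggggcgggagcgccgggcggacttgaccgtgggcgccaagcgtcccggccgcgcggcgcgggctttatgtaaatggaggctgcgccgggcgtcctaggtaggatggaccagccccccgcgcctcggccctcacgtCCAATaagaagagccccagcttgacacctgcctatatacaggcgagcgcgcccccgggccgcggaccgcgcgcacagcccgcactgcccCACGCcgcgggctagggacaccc
ALDH1A2, second start, minus strand of chr15:58013974-58014273: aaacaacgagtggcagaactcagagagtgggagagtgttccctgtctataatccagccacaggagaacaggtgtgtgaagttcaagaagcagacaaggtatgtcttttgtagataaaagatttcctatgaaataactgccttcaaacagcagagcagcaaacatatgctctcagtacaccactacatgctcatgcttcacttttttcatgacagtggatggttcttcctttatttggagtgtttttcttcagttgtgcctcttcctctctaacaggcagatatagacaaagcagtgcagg
ALDH1A3, plus strand of chr15:100879581-100879880: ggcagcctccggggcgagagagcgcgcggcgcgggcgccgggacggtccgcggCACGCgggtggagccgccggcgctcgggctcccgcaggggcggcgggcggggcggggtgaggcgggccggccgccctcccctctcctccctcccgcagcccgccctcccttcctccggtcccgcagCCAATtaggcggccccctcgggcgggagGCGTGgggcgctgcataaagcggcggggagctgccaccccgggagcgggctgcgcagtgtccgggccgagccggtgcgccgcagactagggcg

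The ALDH1A1 window had a GC content of 40.3% and 7 CpG dinucleotides. The first ALDH1A2 window had 74.0% and 41, the second 42.7% and 1, and the ALDH1A3 window 81.7% and 46. The median over 35116 windows of all genes was 58.7% and 14. CCAAT began 74 bases before the start in ALDH1A1, 62 bases before the first start in ALDH1A2 and 71 bases before the start in ALDH1A3, and 34.6% of all windows hold it somewhere. GCGTG was not in the ALDH1A1 window or the second ALDH1A2 window and was in the first ALDH1A2 window and the ALDH1A3 window, against 36.5% of all windows. In all, 8 members matched the table, with 11 windows, and ALDH2 and ALDH3A1 have no entry. CCAAT was in 6 of the 11 windows, GCGTG in 3, and GGGCGG (the GC box) in 7 against 45.0% of all windows. TATAAA and the antioxidant response core TGACNNNGC were in 0 of the 11, against 11.5% and 13.3% of all windows. Matches of GCGTG and GGGCGG were counted separately whether or not they overlapped. These matches describe letters in the window and do not show that a factor binds.

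ALDH1A1 on chromosome 9, the cytosolic retinaldehyde dehydrogenase used as a tumour stem cell marker, hardly differed between the lines. Its only probe set (212224_at) had a signal of 19084 in CisR, 17397 in DoxR and 19560 in parental cells. The log2 differences from parental were -0.036 and -0.17. For ALDH1A2 on chromosome 15 the 2 probe sets ranged from 7.45 to 56.1 in CisR, 19.4 to 43.0 in DoxR and 6.59 to 30.9 in parental cells. For ALDH1A3, also on chromosome 15, they ranged from 20.7 to 25.4, from 1.74 to 1.94 and from 1.66 to 20.2 in the same arrays. All of these lie under the floor, where MAS5 values have no usable order, and no difference was computed.

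**Figure D1:**
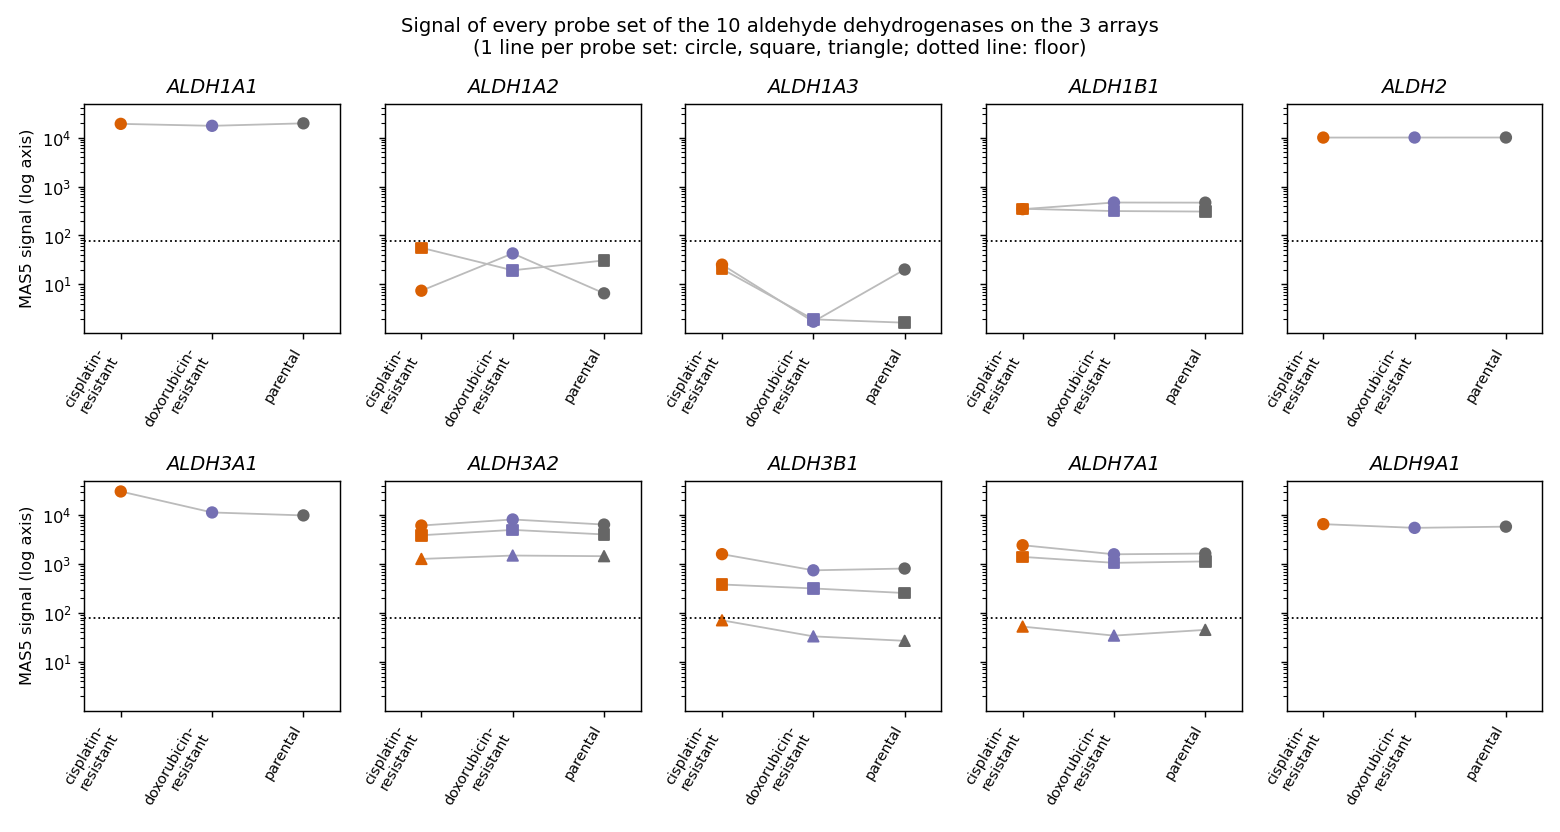
MAS5 signal (log axis) of each probe set of the 10 members on the cisplatin-resistant, doxorubicin-resistant and parental arrays, with 1 line per probe set and the floor of 76.9 dotted. ALDH3A1 is high on the cisplatin-resistant array at 30222, ALDH2 is level across the arrays, and both probe sets of ALDH1A2 and of ALDH1A3 lie under the floor throughout.

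ALDH3A1 on chromosome 17 was the member that differed most between the lines. The enzyme oxidises aromatic and medium-chain aliphatic aldehydes and is known as a corneal crystallin and as a gene that many hepatocellular carcinomas express. Its only probe set (205623_at) had a signal of 30222 in CisR, 11266 in DoxR and 9800 in parental cells. The cisplatin-resistant array thus stood apart and the other 2 lay close together. It was 3.08-fold higher in the cisplatin-resistant than in the parental array (log2 1.62), and 72 of the other genes compared had a larger positive difference. It was 1.15-fold higher in the doxorubicin-resistant than in the parental array (log2 0.20) and 2.68-fold lower in the doxorubicin-resistant than in the cisplatin-resistant array. With 1 probe set there was no second measurement of ALDH3A1 on the same array.

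ALDH3A1 was 1 of 8 compared members and the only one called in the cisplatin-resistant against parental comparison, where 5.41% of 12710 compared genes were called (2.83% of the compared genes higher, 2.58% lower). ALDH3A1 belongs to the brighter genes, and among the 4237 compared genes with the highest mean signal, where 6 of the 8 members lie, 2.12% were called and 0.684% were called higher. With 8 members compared, a single call is read here for ALDH3A1 alone and not for the family. The members' median log2 difference was 0.083, beside 0.019 over all compared genes, with 4 members above 0 and 4 below.

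The arrays were alike in scale, which the processing fixed, since the mean without the lowest and highest 2% was 499.9 on each. The median signal was 79.2 in CisR, 73.3 in DoxR and 78.5 in parental cells, and the 3' to 5' signal ratio lay between 1.49 and 1.53 for ACTB and between 0.954 and 1.02 for GAPDH. Of all 19775 genes, 12107 were above the floor in CisR, 11879 in DoxR and 12083 in parental cells. Of 12 hepatocyte and fetal liver markers, 9 were above the floor in CisR, 7 in DoxR and 10 in parental cells. Their summed signal was 2545, 7241 and 16147, and ALB, APOA2 and FGG were under the floor in the cisplatin-resistant array, APOA1, APOA2, FGA, FGB and FGG in the doxorubicin-resistant array and APOA1 and APOA2 in the parental array. Against parental, 9 of 11 compared markers were called lower in CisR, beside 2.58% of all compared genes. Other probe sets of ALB, TF, SERPINA1 and FGB were also past 2-fold there. Those of APOH and FGA, both called, gave floored log2 differences of only -0.32 and -0.43. FGA also gave -0.43 by that probe set in DoxR, where other probe sets of TF and FGB were past 2-fold. In DoxR 4 of 10 were called lower, beside 2.74%, 5 lay within 2-fold and 1 was called higher. The higher one was ALB, at 3115 in DoxR and 1545 in parental cells, with 0.95 and 0.18 by its other probe sets. TF had 234, 404 and 4925, so it weighs heavily in the sums. Epithelial markers summed to 74228, 76881 and 62435, with EPCAM under the floor on all arrays. Fibroblast markers summed to 3305, 1528 and 742. Most of the sum in the sublines was LUM, a matrix proteoglycan gene, at 2632, 1167 and 258 by its brightest probe set, and its other probe set gave a floored log2 difference of 0.07 in CisR cells. COL1A1 had 511, 242 and 309, and COL1A2, COL3A1 and PDGFRB were under the floor throughout. Of 4 endothelial and 3 leukocyte markers on the array, 1 or none of each list was above the floor on any array. The liver marker sum was lowest where ALDH3A1 was highest, and its part in the ALDH3A1 difference was not tested.

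ALDH3B1 on chromosome 11, a membrane-bound enzyme that oxidises lipid-derived aldehydes, was also higher in the cisplatin-resistant array but just under 2-fold. Its brighter probe set (205640_at) had a signal of 1584 in CisR, 741 in DoxR and 805 in parental cells. The second (211004_s_at) had 381, 316 and 255, and the dimmest (1565731_at) 70.5, 33.2 and 26.9, all under the floor. The cisplatin-resistant array was the highest in both measurable probe sets. Relative to parental the log2 difference in the cisplatin-resistant array was 0.98 (1.97-fold) by the brighter and 0.58 by the second probe set. In the doxorubicin-resistant array the probe sets disagreed in sign, at -0.12 and 0.31.

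ALDH3A2 on chromosome 17, the fatty aldehyde dehydrogenase of the endoplasmic reticulum whose loss causes Sjögren-Larsson syndrome, was the highest in the doxorubicin-resistant array. Its brightest probe set (202053_s_at) had a signal of 6094 in CisR, 8095 in DoxR and 6374 in parental cells. The others had 3854, 4962 and 4007 (202054_s_at) and 1265, 1484 and 1440 (210544_s_at). All 3 probe sets put the doxorubicin-resistant array above and the cisplatin-resistant array below parental. The log2 differences from parental ran from 0.043 to 0.34 in the doxorubicin-resistant array and from -0.19 to -0.056 in the cisplatin-resistant array, none near 2-fold.

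**Figure D2:**
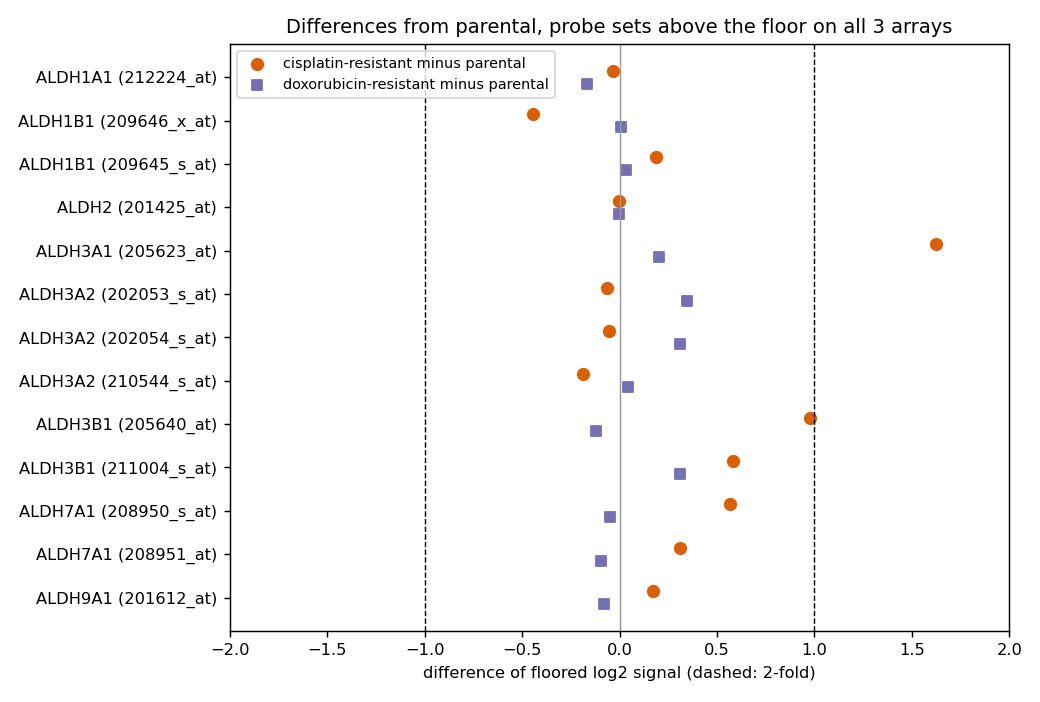
Difference from parental in floored log2 signal for the 13 measurable probe sets of members, with the cisplatin-resistant subline as circles, the doxorubicin-resistant subline as squares and 2-fold as dashed lines. ALDH3A1 at 1.62 in the cisplatin-resistant array is the only point past 2-fold, and ALDH3B1 at 0.98 lies just inside it.

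ALDH2 on chromosome 12, the mitochondrial enzyme that removes acetaldehyde, had nearly the same signal in all lines. Its probe set (201425_at) read 10012 in CisR, 10031 in DoxR and 10042 in parental cells, a range of 0.0043 on the log2 scale. ALDH1B1 on chromosome 9, its mitochondrial relative, had 345, 472 and 469 by one probe set (209646_x_at) and 351.4, 315.7 and 308.3 by the other (209645_s_at). The probe sets of ALDH1B1 gave log2 differences of opposite sign in the cisplatin-resistant array, -0.44 and 0.19, and lay within 0.034 of parental in the doxorubicin-resistant array. No direction can be given for ALDH1B1 in the cisplatin-resistant subline.

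ALDH7A1 on chromosome 5, antiquitin, acts in lysine breakdown and makes betaine from betaine aldehyde. Its brightest probe set (208950_s_at) had a signal of 2412 in CisR, 1575 in DoxR and 1628 in parental cells. The second (208951_at) had 1393, 1054 and 1125, and the dimmest (213591_at) 52.4, 34.3 and 45.0, under the floor. Both measurable probe sets were highest in the cisplatin-resistant array, with log2 differences from parental of 0.57 and 0.31, and lowest in the doxorubicin-resistant array, at -0.047 and -0.095. ALDH9A1 on chromosome 1, which oxidises the aldehyde precursor of carnitine, had 6499, 5458 and 5776 (201612_at). Its log2 differences from parental were 0.17 in CisR and -0.082 in DoxR cells.

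Ordered by their range over the 3 arrays, the 8 measurable members were ALDH3A1 at 1.62 on the log2 scale, ALDH3B1 at 1.10, ALDH7A1 at 0.61, ALDH1B1 at 0.45, ALDH3A2 at 0.41, ALDH9A1 at 0.25, ALDH1A1 at 0.17 and ALDH2 at 0.0043. There is no spread between replicates to set these against. How far the probe sets of 1 gene disagree can be measured, but it covers only technical disagreement between probes and cannot stand in for that spread. Over 5475 genes with several measurable probe sets, the range of the differences in the cisplatin-resistant against parental comparison had a median of 0.33 and a 90th percentile of 0.85. It was 0.63 for ALDH1B1, 0.40 for ALDH3B1, 0.26 for ALDH7A1 and 0.13 for ALDH3A2. In the doxorubicin-resistant against cisplatin-resistant comparison the median was 0.34 and the 90th percentile 0.87. There the range was 0.83 for ALDH3B1, close to that percentile, 0.61 for ALDH1B1, 0.21 for ALDH7A1 and 0.18 for ALDH3A2.

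In the doxorubicin-resistant against parental comparison, 0 of 8 compared members were called, where 5.72% of 12605 compared genes were (2.98% higher, 2.74% lower) and 2.36% of the 4202 brightest. The differences ran from -0.17 for ALDH1A1 to 0.34 for ALDH3A2. Their median was -0.024, beside 0.0042 over all compared genes. This comparison and the previous one share the parental array.

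The direct comparison of the sublines called 2 of 8 members, both lower in the doxorubicin-resistant array, where 6.36% of 12604 compared genes were called (3.05% higher, 3.3% lower) and 3.12% of the 4202 brightest. These were ALDH3A1, at 11266 in DoxR and 30222 in CisR cells, and ALDH3B1, at 741 and 1584 in the same order. The log2 differences were -1.42 and -1.10. ALDH3B1 was not among the 4237 genes of highest mean signal in the first comparison, so the 3.12% is no background for it. The second probe set of ALDH3B1 gave -0.27, so its call rests on 1 probe set. ALDH7A1 followed at -0.61 and -0.40 by its measurable probe sets, while ALDH3A2 went the other way, from 0.23 to 0.41 over its probe sets. The members' median was -0.19, beside -0.011 over all compared genes, with 3 members above 0 and 5 below. This comparison uses the same arrays as the first ones and is not independent of them.

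**Figure D3:**
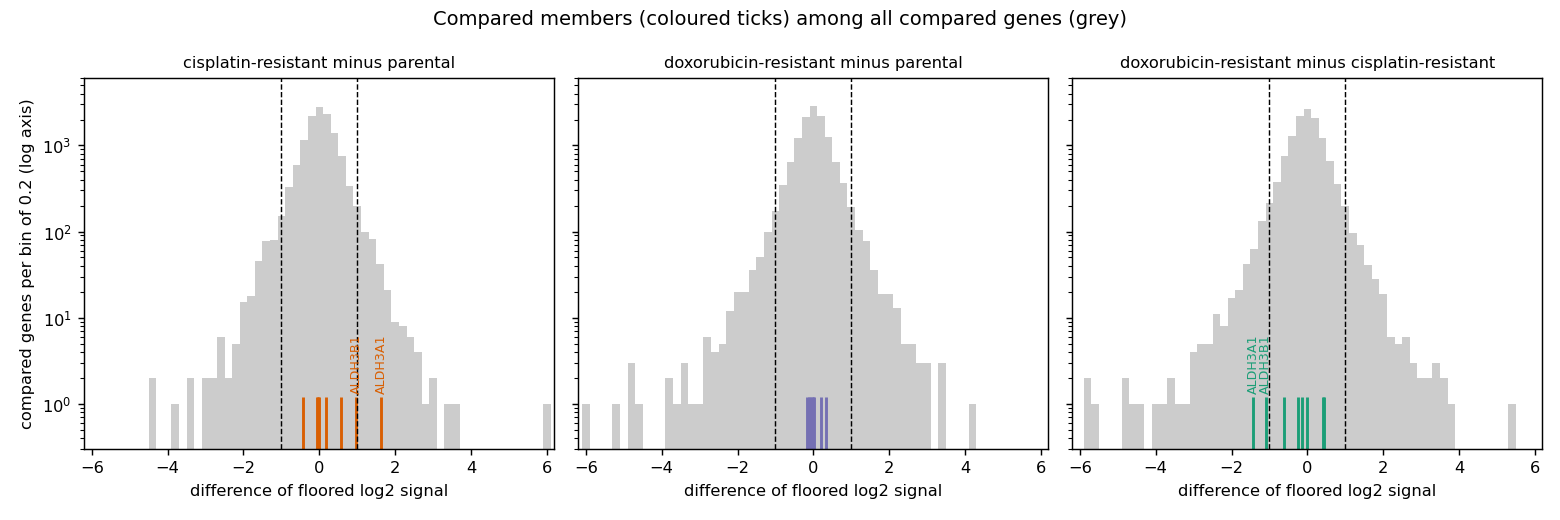
Number of compared genes (log axis) by their difference in floored log2 signal in bins of 0.2, in grey, for the 3 comparisons, with the 8 compared members as coloured ticks and 2-fold as dashed lines. ALDH3A1 lies at 1.62 in the first panel and at -1.42 in the last, and in the middle panel all members lie between -0.17 and 0.34.

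ALDH3A1 and ALDH3A2 lie next to each other on chromosome 17, with 1 protein-coding gene between them, the cation transporter gene SLC47A2. The pair differed in pattern. In the cisplatin-resistant array the log2 difference was 1.62 for ALDH3A1 and -0.065 for ALDH3A2, and in the doxorubicin-resistant array 0.20 and 0.34. SLC47A2 was under the floor in the cisplatin-resistant and parental arrays (19.1 and 64.9) and read 80.3 in the doxorubicin-resistant array. Of the 15 protein-coding genes on each side of ALDH3A1, ALDH3A2 included, 18 could be compared in the cisplatin-resistant array, with a median of 0.27 and a range of -0.54 to 1.43. Only 1 of them was called, the ciliary gene B9D1 at 3383 in CisR and 1259 in parental cells. It lies on the ALDH3A2 side together with MAPK7 at 0.84, PRPSAP2 at 0.87 and TVP23B at 0.69, and these differences were 0.34, -0.25, 0.072 and -0.13 in the doxorubicin-resistant array. Between that group and ALDH3A1, the transporter gene SLC47A1 stood at -0.0076. The part of any chromosomal change in the ALDH3A1 difference was not tested, and the difference was 1.35 with the median of the 20 nearest compared genes subtracted.

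**Figure D4:**
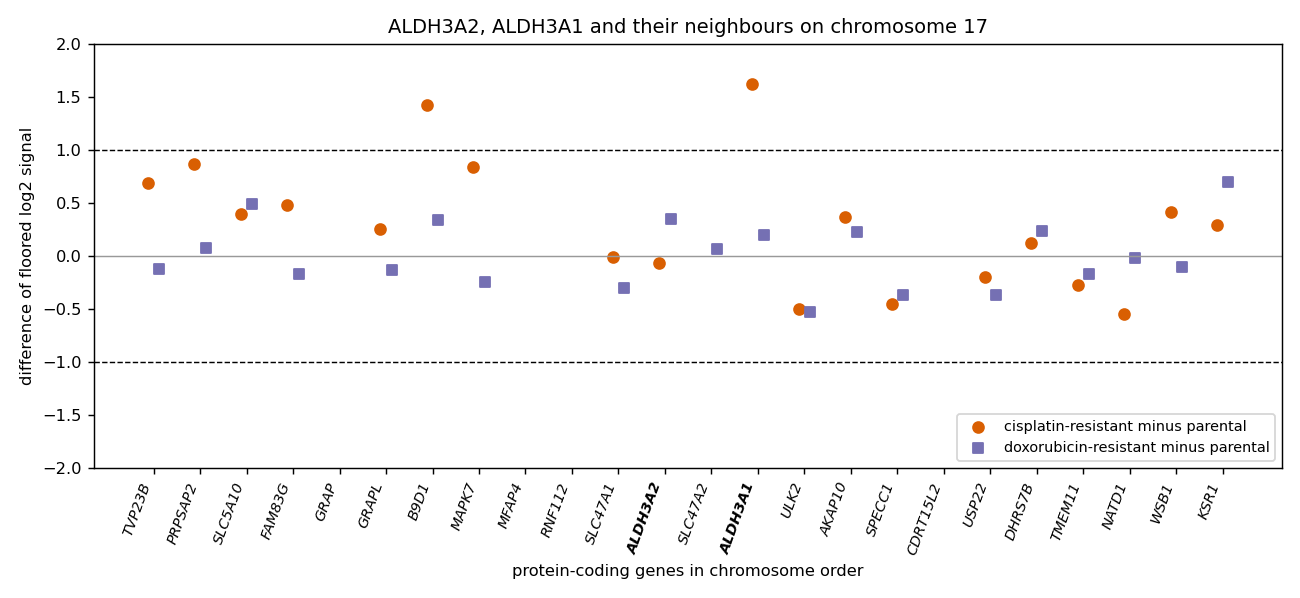
Difference from parental in floored log2 signal for the protein-coding genes on the array around ALDH3A2 and ALDH3A1 (bold), in chromosome order and without scale for distance, for the cisplatin-resistant (circles) and doxorubicin-resistant (squares) sublines. ALDH3A1 at 1.62 and B9D1 at 1.43 are past 2-fold in the cisplatin-resistant array, with ALDH3A2 and SLC47A1 near 0 and MAPK7 at 0.84 between them. Genes with no point in a subline were under the floor in both arrays compared.

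The aryl hydrocarbon receptor is the classical inducer of ALDH3A1. A list of 9 genes was examined, made up of the receptor gene AHR, its partner ARNT and genes the receptor acts on. Of these, CYP1A1 was under the floor on all arrays by its brightest probe set and was not compared. Of 8 compared genes of this list, 0 were called in the cisplatin-resistant array, with a median of 0.089, and 1 was called higher in the doxorubicin-resistant array, with a median of 0.14. Of all compared genes 5.41% and 5.72% were called, so few calls are expected among 8 genes. NQO1, the quinone reductase, had 27861 in CisR, 29005 in DoxR and 28532 in parental cells. CYP1B1, a target of the receptor, had 543, 544 and 582, and TIPARP, another target, had 1371, 1501 and 1486. The receptor gene AHR itself had 4350, 4233 and 2922, 1.49-fold and 1.45-fold above parental. The gene called in the doxorubicin-resistant array was UGT1A6, a glucuronosyltransferase, at 2561 against 1176 in parental, and it was 1.76-fold above parental in the cisplatin-resistant array. UGT1A genes share exons, so this probe set may read several of them. The receptor's repressor AHRR was 2.55-fold higher in the doxorubicin-resistant than in the cisplatin-resistant array, at 211 and 83.0, the lower value close to the floor. It was the 1 gene of 8 called between the sublines, where 6.36% of all compared genes were. The part of the receptor in the ALDH3A1 difference was not tested.

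A list of 9 other ALDH genes was set beside the 10. Of these, 7 could be compared, and ALDH3B2 and ALDH8A1 were under the floor on all arrays. In the cisplatin-resistant array 1 of 7 was called, beside 5.41% of all compared genes, with a list median of 0.22. This was ALDH1L1, a cytosolic folate enzyme, at 199 in CisR and 80.0 in parental cells, 2.49-fold higher, but -0.23 by its other probe set. In the doxorubicin-resistant array 1 of 7 was called, beside 5.72% of all compared genes, with a list median of 0.15. This was ALDH1L2, the mitochondrial folate enzyme, at 252 in DoxR and 82.3 in parental cells, 3.07-fold higher, and it was 2.03-fold higher than in the cisplatin-resistant array. Both parental values lie close to the floor. The other probe sets of ALDH1L2 were under the floor on all arrays, so its call rests on 1 probe set. ALDH5A1, which clears succinic semialdehyde from GABA, had 1253 in CisR, 1799 in DoxR and 1117 in parental cells. ALDH6A1, of valine breakdown, had 1321, 878 and 852 by its brightest probe set, and ALDH18A1, which makes the proline precursor, had 1730, 1720 and 1550.

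Alcohol dehydrogenases and aldehyde oxidase make or share the members' substrates. Of 6 compared genes of this list, 1 was called higher and 1 lower in the cisplatin-resistant array, both barely past 2-fold. The list median was -0.25. Of all compared genes 2.83% were called higher and 2.58% lower there. ADH6, an alcohol dehydrogenase, had 294 in CisR, 410 in DoxR and 146 in parental cells, 2.01-fold and 2.81-fold higher than parental. Its other probe set gave 0.15 and 1.48 on the log2 scale. The aldehyde oxidase AOX1 had 104, 245 and 210, 2.03-fold lower in the cisplatin-resistant than in the parental array and 2.36-fold higher in the doxorubicin-resistant than in the cisplatin-resistant array. In the doxorubicin-resistant array ADH6 was the one gene of 6 called, where 5.72% of all compared genes were. The list median was 0.0083.

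Among retinoid genes, which act before and after the ALDH1A enzymes, 1 of 16 compared genes was called in each subline, a share near the 5.41% and 5.72% of all compared genes. The called gene was DHRS9, a retinol dehydrogenase, with a signal of 685 in CisR, 930 in DoxR and 1932 in parental cells. It was 2.82-fold and 2.08-fold lower than parental. Its other probe sets gave -0.86 and -0.99 in CisR and -1.36 and -1.27 in DoxR cells. The list medians were -0.15 and -0.00089. CYP26B1, which breaks down retinoic acid, had 611, 609 and 393, the largest positive difference of the list in each subline but within 2-fold. The receptor gene RARB had 600, 697 and 475, and its other probe set gave -0.04 and 0.08. Other genes of the list lay below parental in both sublines, such as RDH5 at 298, 188 and 321.

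Of the genes of the fatty aldehyde and sphingosine phosphate route around ALDH3A2, 3 of 9 were called higher in the cisplatin-resistant array and 4 of 9 in the doxorubicin-resistant array, and none was called lower in either. Of all compared genes 2.83% and 2.98% were called higher and 2.58% and 2.74% lower, so 0 of 9 called lower is near the background. The list was chosen with earlier results of these data known, so the shares called higher are no test of the route. The medians were 0.33 and 0.51. FAR2, which reduces fatty acyl-CoA to alcohols, had 2118 in CisR, 2081 in DoxR and 792 in parental cells, 2.67-fold and 2.63-fold higher, and its other probe set gave 1.18 and 1.31. CYP4F2, a fatty acid hydroxylase, had 231, 202 and 83.2, from a parental value near the floor. SGPP2, a sphingosine phosphate phosphatase, had 1169, 3354 and 787, and was 4.26-fold higher in the doxorubicin-resistant array than in parental. Its other probe sets gave 1.51 and 1.59 there. CYP4F3 had 1316, 2463 and 1095 and was called in the doxorubicin-resistant array, while CYP4F11 had 645, 320 and 314 and was called in the cisplatin-resistant array. CYP4F genes are close in sequence, and their probe sets can share signal. SGPL1, the lyase that yields the fatty aldehyde, was within 2-fold at 1021, 1451 and 1263. The kinase gene SPHK1 was 2.14-fold and SGPP2 2.87-fold higher in the doxorubicin-resistant than in the cisplatin-resistant array, and CYP4F11 2.02-fold lower.

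The routes around ALDH7A1 and ALDH9A1 were examined gene by gene. Of 10 compared genes, 2 were called higher and 1 lower in the cisplatin-resistant array, with a median of 0.27. Of all compared genes 2.83% were called higher and 2.58% lower there. Of 9 in the doxorubicin-resistant array 2 were called lower, with a median of 0.16, beside 2.74% of all compared genes called lower. BBOX1, which completes carnitine synthesis after ALDH9A1, had 305 in CisR, 531 in DoxR and 1081 in parental cells, 3.55-fold and 2.03-fold lower than parental. CHDH, which supplies betaine aldehyde, had 456, 241 and 216, and DHTKD1, of lysine breakdown, had 1888, 1271 and 897. Both were called higher in the cisplatin-resistant array, CHDH with probe sets of both signs. BHMT2, a methyltransferase, had 4050, 568 and 2542, 4.48-fold lower in the doxorubicin-resistant than in the parental array and 7.13-fold lower than in the cisplatin-resistant array. Of the amine and polyamine oxidation genes, 1 of 7 was called in the cisplatin-resistant array and 0 of 6 in the doxorubicin-resistant array. The list medians were -0.41 and 0.035, and the shares called among all compared genes were 5.41% and 5.72%. The call was AOC1, the diamine oxidase, at 192 in the cisplatin-resistant array and under the floor at 15.3 in the parental array, at least 2.50-fold higher. It was also under the floor in the doxorubicin-resistant array, at 51.8. The mitochondrial monoamine oxidase MAOB had 1144, 2419 and 2104, 2.12-fold higher in the doxorubicin-resistant than in the cisplatin-resistant array.

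**Figure D5:**
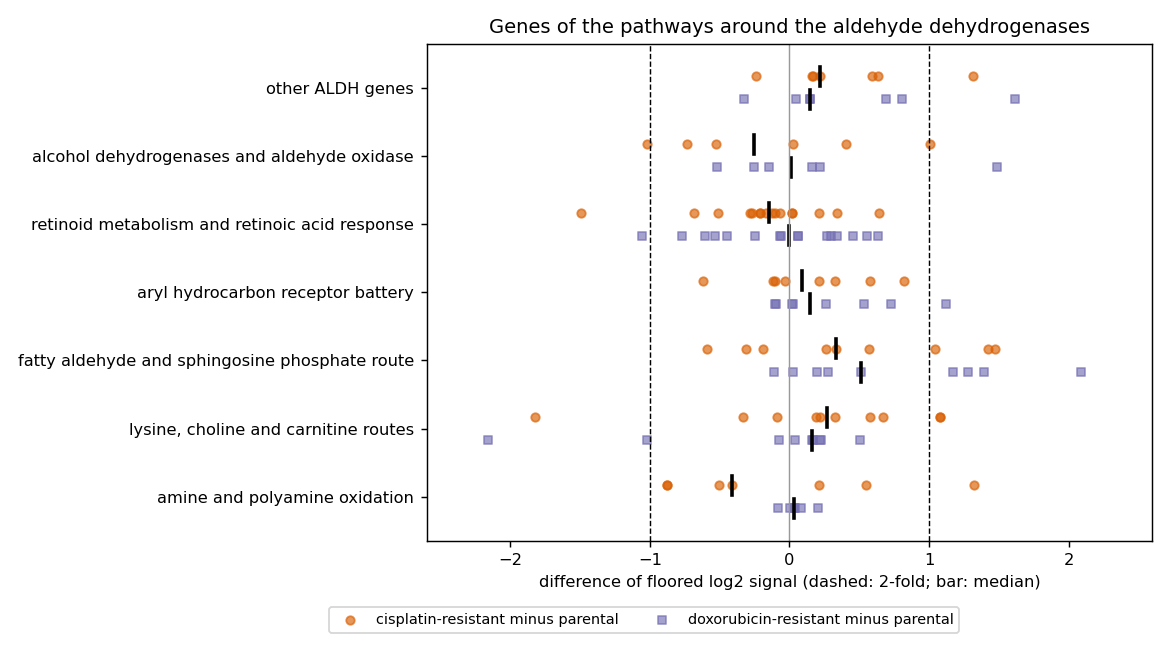
Difference from parental in floored log2 signal of the compared genes of 7 pathway lists, 1 point per gene, for the cisplatin-resistant (circles) and doxorubicin-resistant (squares) sublines, with the list median as a bar and 2-fold as dashed lines. The fatty aldehyde list has medians of 0.33 and 0.51. It has no gene past 2-fold on the lower side, which is near the background of 2.58% and 2.74% of all compared genes.

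The genes whose differences from parental in both sublines were closest to those of ALDH3A1 were CCDC186, PLGRKT and the transcription factor gene GATA3, of 11125 other genes above the floor on all arrays. Their distances from ALDH3A1 in the plane of the 2 log2 differences were 0.051, 0.093 and 0.12. GATA3 had 4058 in CisR, 1637 in DoxR and 1315 in parental cells. A pattern over 3 arrays has few degrees of freedom, and such closeness describes only these arrays.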

How the data were processed

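Per the labels' protocols, RNA was extracted with Trizol, and 1 ug with integrity numbers of 8.8 to 9.5 was labelled with biotin for Affymetrix U133 Plus 2.0 arrays. The deposited values are linear intensities that the authors computed for each probe set with MAS5 per the submitters' processing notes, with the version not given in the sources used here. The mean of each array without the lowest and highest 2% was 499.9 signal units. Detection calls were not used here.

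Of 54675 probe sets, 41097 had 1 gene symbol, updated through Entrez identifiers in a RefSeq table of GRCh38.p14, where 99.9% matched. Values under the floor were raised to it and log2 was taken. Each gene took the values of its brightest probe set by mean floored log2 and was compared when 1 of its values exceeded the floor. The members and lists were chosen with earlier results of these data known. All members are named whatever their value. Of each list, up to 4 genes past 2-fold in each comparison are named, and other listed genes were picked after their values were seen. With 1 array per line, no p-value was computed, and precision is limited by having 3 arrays. Steps were tested on simulated data and run in Python 3.11.15 with numpy 2.4.6 and pandas 2.3.3, with 9 alternative settings.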

Additional observations from a re-analysis of the deposited data

Results flagged for a closer look

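ALDH3B1 lay above parental in the cisplatin-resistant array and below it in the doxorubicin-resistant array, and the sublines differed past 2-fold. Its signal was 741 in DoxR and 1584 in CisR cells, a log2 difference of -1.10. The second probe set gave -0.27 and was above parental in both sublines. With 1 array per line the difference was not tested.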

How the results depend on the processing

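The call of ALDH3A1 held under all 9 alternatives, with log2 differences of 1.35 to 1.65 in the cisplatin-resistant against parental and -1.46 to -1.34 in the doxorubicin-resistant against cisplatin-resistant comparison. Several alternatives could not change it, since ALDH3A1 has 1 probe set, far above the floor. These were both other floors, the median over probe sets and leaving out probe sets with the suffix _x_at or _s_at. Of 210 values of single members under alternatives, 208 stayed on the same side of 2-fold, and both exceptions were ALDH3B1. It reached 1.01 in the cisplatin-resistant against parental comparison with the neighbour median subtracted, which made 2 members called there in place of 1. It came to -0.68 between the sublines by the median over probe sets, which left 1 called in place of 2. With no floor and log2(value + 16), 1 member was called in the doxorubicin-resistant against parental comparison and 4 between the sublines in place of 2, since ALDH1A2 and ALDH1A3 then entered with values under the floor. With the floor at the 25th percentile, 3 were called between the sublines, ALDH1A2 being the addition. Among the other ALDH genes, the 1 call of each comparison fell to 0 with a floor at the 75th percentile, which tested 4 genes. The call of ALDH1L1 in the cisplatin-resistant array also fell to 0 by the median over probe sets. That of ALDH1L2 between the sublines fell to 0 with no floor and with the neighbour median subtracted. No paired analysis was possible because each line has 1 array. Leaving out a replicate was not possible for the same reason. The sign of uncalled differences turned in 8 values, 5 of them of ALDH2 near 0. ALDH3B1 in the doxorubicin-resistant array came to 0.094 by the median over probe sets. With the neighbour median subtracted, ALDH9A1 came to 0.33 in the doxorubicin-resistant against parental comparison and to 0.25 between the sublines. Members with signals near or under the floor, ALDH1A2 and ALDH1A3, allow no statement on change.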
